A study of Mus musculus with 24 samples.

Results

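Epcam, Prom1, Cd24a, Cd44, Cd9 and Ncam1 are 6 genes whose surface proteins are used to recognise and sort cells of the bile duct lineage and progenitor cells of the liver. They were taken by their symbols, and all 6 are listed in each of the 3 expression tables, among 31053 genes in the hepatocyte table, 25876 in the cholangiocyte table and 20729 in the Smart-Seq table. In an adult liver EpCAM and prominin-1 sit on bile duct cells and are missing from mature hepatocytes, and both appear on the small epithelial cells that spread from the portal area after injury. CD24, CD44 and CD9 are found on bile duct epithelium and on injured or growing epithelium, but also on blood cells and mesenchymal cells, while NCAM1 is known from nerve, natural killer cells, stellate cells and reactive bile ductules.

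The 24 libraries come from wild-type adult BALB/c mice. Primary hepatocytes (Pri-Hep) were taken from a Percoll gradient and then from the fraction that EpCAM beads left behind, and they were the source of the hepatocyte organoids (Hep-Orgs). Hep-Orgs were sequenced at passage 1, 5 and 10 (P1, P5, P10) after culture with R-spondin1, CHIR99021, EGF, FGF7, FGF10, HGF, A83-01 and Y-27632, to which DAPT, an inhibitor of the gamma-secretase that activates Notch, and dexamethasone, a glucocorticoid, had been added. Cholangiocyte organoids (Cho-Orgs) were grown from cells that the EpCAM beads held, with R-spondin1, Noggin, Wnt3a, EGF, FGF10, HGF, forskolin, A83-01 and Y-27632, and were sequenced at P0, P5 and P10. Each of these 7 groups has 3 libraries. The other 3 libraries are Smart-Seq libraries, made from amplified full-length cDNA, of the shapes that Hep-Orgs took at P0, picked as grape-like, round-like or intermediate, with 1 library each. The study describes these shapes in the hepatocyte medium before DAPT and dexamethasone were added. The mice carried no lineage label, so the origin of a culture rests on the gradient and the beads.

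Levels are given in the authors' unit, FPKM. The fragments of a gene are divided by its length and by a scaling value of the library that follows its depth. The hepatocyte table rests on 14068906 to 27160365 fragments per library, and the other tables on about 37460000 to 40340000, estimated from the steps between low values. The libraries labelled Pri-Hep went against their label in cell type markers. The summed level of 10 cholangiocyte markers in them was 1021 to 1078 FPKM, against 609 to 643 FPKM for the 11 hepatocyte markers listed. A large part of each sum was 1 gene, Aqp1 at a mean of 532 FPKM and Ttr at 419 FPKM. Asgr1, Cyp2e1 and Serpina1a, which define hepatocytes, were under 1 FPKM in all 3 libraries. The other 8 hepatocyte markers listed were at 1 FPKM or above in at least 3 libraries of the hepatocyte table. In the Hep-Orgs of the same table the sums were 1053 to 1089 and 622 to 671 FPKM, and the same 3 hepatocyte genes were under 1 FPKM, so the markers went against this label as well. In all 12 libraries Cftr and Sctr, of the cholangiocyte list, were under 1 FPKM too. Ranked across genes, 2 libraries of different groups had a Spearman rho of 0.9958 at the median, and 2 libraries of 1 group a rho of 0.9959. Pri-Hep and Hep-Orgs are therefore used below only as the names of these libraries, and a comparison between them is one of the libraries so labelled.

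The genes lie on 6 chromosomes of the mouse genome (mm10, which is GRCm38). Epcam (ENSMUSG00000045394) is at chr17:87635979-87651106 on the plus strand and Cd24a (ENSMUSG00000047139) at chr10:43578284-43584265 on the plus strand. On the minus strand, Prom1 (ENSMUSG00000029086) is at chr5:43993620-44102032, Cd44 (ENSMUSG00000005087) at chr2:102811141-102901665, Cd9 (ENSMUSG00000030342) at chr6:125460266-125494791 and Ncam1 (ENSMUSG00000039542) at chr9:49502136-49798925. The values count fragments over all exons of a gene, so the spliced forms of CD44, which carry or lack its variable exons, cannot be told apart here. Cd9 has a processed pseudogene, Cd9-ps, 91.1% identical over 665 bases, and Cd24a has stretches of 259 and 218 bases in the pseudogenes Gm15352 and Gm6212 that are 92.3% and 96.8% identical, so a small part of their counts may be shared with these copies. Exons of Prom1, Cd9 and Ncam1 overlap a transcript of the opposite strand (Gm16401, Gm26728 and Gm11149) over 424, 218 and 417 bases. The study describes its bulk reads as specific for strand and says nothing of strand for the Smart-Seq libraries. In the bulk libraries these overlaps are a limit only if the counting left strand aside, which is not given in the sources used here. In the Smart-Seq libraries they may be a limit in any case.

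The promoters of the members that moved together in Cho-Orgs are shown because 3 of them, Prom1, Cd44 and Cd9, were highest at P5. In the RefSeq promoter table used here (GRCm38.p6) 4 of the 6 genes were matched, and Cd24a and Ncam1 were not. Each sequence runs from 250 bases before to 50 bases after the start site, 5′ to 3′ on the strand of the gene, and capitals mark the motifs that were found, on either strand.
Epcam, chr17:87635729-87636028, plus strand: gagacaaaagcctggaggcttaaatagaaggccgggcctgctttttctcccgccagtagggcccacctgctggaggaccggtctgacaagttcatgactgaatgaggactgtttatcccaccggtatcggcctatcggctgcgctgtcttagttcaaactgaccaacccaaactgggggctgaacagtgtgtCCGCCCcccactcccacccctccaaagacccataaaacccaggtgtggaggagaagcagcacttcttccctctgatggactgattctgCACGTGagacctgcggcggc
Prom1, chr5:44101687-44101986, minus strand: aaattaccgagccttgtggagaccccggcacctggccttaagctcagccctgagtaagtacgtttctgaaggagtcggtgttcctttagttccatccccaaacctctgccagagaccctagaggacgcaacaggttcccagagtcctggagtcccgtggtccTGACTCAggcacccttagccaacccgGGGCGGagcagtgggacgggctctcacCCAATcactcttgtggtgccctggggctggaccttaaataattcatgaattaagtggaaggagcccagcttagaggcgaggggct
Cd44, chr2:102901616-102901915, minus strand: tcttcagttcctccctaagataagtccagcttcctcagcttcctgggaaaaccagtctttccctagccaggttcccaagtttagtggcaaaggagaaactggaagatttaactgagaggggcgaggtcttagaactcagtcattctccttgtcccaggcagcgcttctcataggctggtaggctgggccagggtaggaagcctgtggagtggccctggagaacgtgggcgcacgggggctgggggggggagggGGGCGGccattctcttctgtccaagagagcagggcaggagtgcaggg
Cd9, chr6:125494711-125495010, minus strand: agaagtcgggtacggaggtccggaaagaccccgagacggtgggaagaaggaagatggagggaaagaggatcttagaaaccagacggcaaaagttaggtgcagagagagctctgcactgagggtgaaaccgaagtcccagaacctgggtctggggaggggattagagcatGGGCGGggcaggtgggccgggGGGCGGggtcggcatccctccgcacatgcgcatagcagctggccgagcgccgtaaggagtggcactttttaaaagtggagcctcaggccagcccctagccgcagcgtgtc

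The motifs searched were the TATA box TATAAA, the CCAAT box, the GC box GGGCGG, the AP-1 site TGAGTCA, the TEAD site GGAATG and the E-box CACGTG, of which the last reads the same on both strands. The GC box was found in all 4 windows, 1 time in Epcam, Prom1 and Cd44 and 2 times in Cd9, and 35.7% of 32851 mouse promoters of this length hold it. The Prom1 window also held a CCAAT box and, at position -88 from the start, an AP-1 site, which 37.4% and 5.20% of all promoters hold. The Epcam window held CACGTG 30 bases after the start, as 7.15% of promoters do. TATAAA and GGAATG were not among the letters of any of the 4 windows, against 13.6% and 14.7% of all promoters. The Cd9 window was the richest of the 4 in CpG, with 18 sites and 61.3% G and C, where the median promoter has 7 sites and 52.7%. A further start site of Prom1, at chr5:44094719-44095018, held no motif of the list and 4 CpG sites.

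In the bulk libraries 5 of the 6 genes were among the highly expressed genes. Among the 16678 symbols that the 3 tables share, the mean percentile of Cd24a was 99.2 to 99.8 in the 7 groups of the hepatocyte and cholangiocyte tables, that of Epcam 98.9 to 99.4, that of Cd9 98.5 to 99.3, that of Cd44 93.4 to 98.5 and that of Prom1 92.2 to 96.8. Ncam1 was at percentile 10.8 to 21.9 in the same groups. Because FPKM is a level per length, the genes can also be set in order. In every group of the hepatocyte table Cd24a was above Epcam, Epcam above Cd9, Cd9 above Cd44 and Prom1, and these above Ncam1, with no overlap of libraries except between Cd44 and Prom1, which overlapped in 3 of the 4 groups. In Cho-Orgs the order was Cd24a, Epcam, Cd9, Cd44 and Prom1 at P0, with no overlap, whereas at P5 Cd9 and Epcam overlapped and at P10 Cd9 was above Epcam in all 3 libraries.

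**Figure D1:**
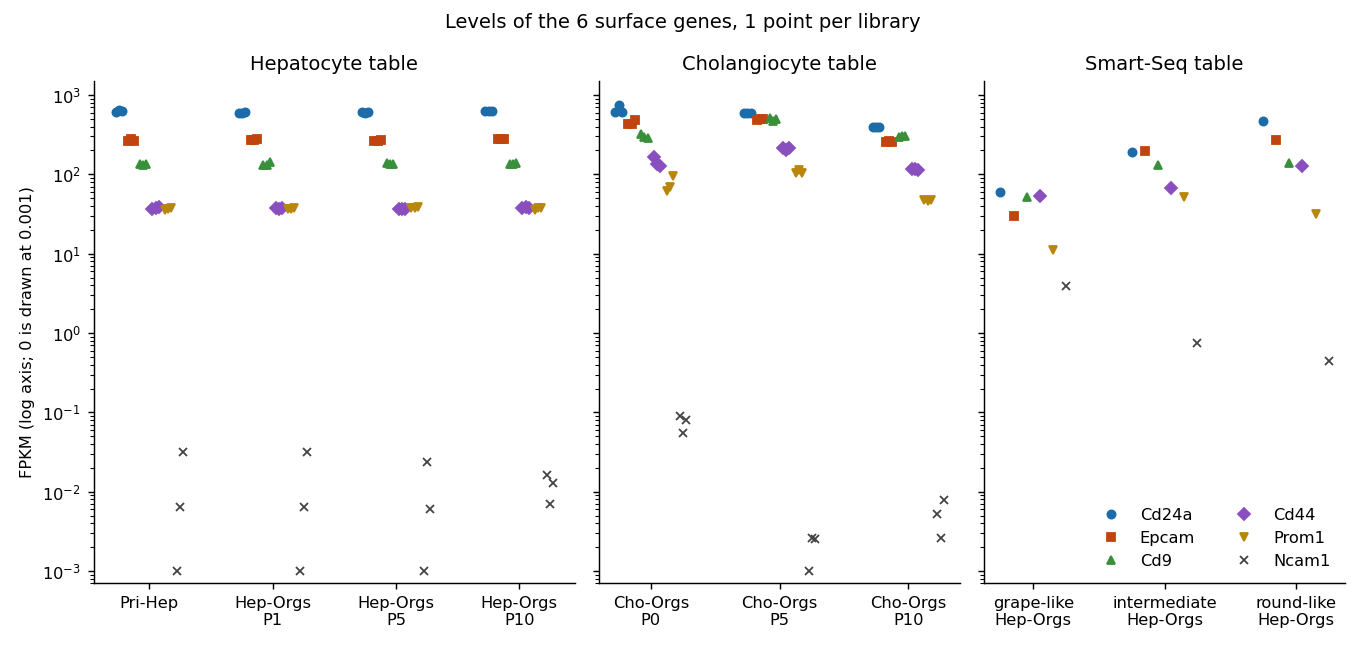
FPKM of the 6 genes on a log axis, with 1 point per library, in the 4 groups of the hepatocyte table, the 3 passages of Cho-Orgs and the 3 Smart-Seq subtypes; a value of 0 is drawn at 0.001. Cd24a, Epcam, Cd9, Cd44 and Prom1 lie at 11.01 FPKM or above in every library, and Ncam1 stays under 0.1 FPKM in all libraries outside the Smart-Seq table.

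The comparison of Hep-Orgs with Pri-Hep asks whether the surface genes differed between the libraries so labelled. Since the markers went against both labels, it cannot show what changed as hepatocytes were brought into culture. No member passed the test. Epcam, whose protein joins epithelial cells and was the target of the depletion beads, was at 265, 275 and 266 FPKM in the libraries labelled Pri-Hep. In Hep-Orgs it was at 271, 272 and 281 FPKM at P1, 266, 261 and 269 FPKM at P5, and 276, 279 and 278 FPKM at P10. The libraries labelled as cells depleted of EpCAM thus held Epcam RNA within the range of the 9 Hep-Orgs libraries.

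Cd24a codes for a small, heavily glycosylated protein on a lipid anchor. It was at 616, 638 and 627 FPKM in Pri-Hep, 598, 594 and 615 FPKM at P1, 616, 601 and 603 FPKM at P5, and 631, 631 and 627 FPKM at P10. Cd9, a tetraspanin that gathers integrins and growth factor precursors in the membrane, was at 133, 132 and 135 FPKM in Pri-Hep and between 131 and 142 FPKM in the 9 Hep-Orgs libraries. Cd44, the main receptor for hyaluronan, was at 36.4, 37.4 and 38.3 FPKM in Pri-Hep and between 36.4 and 39.1 FPKM in Hep-Orgs. Prom1, the pentaspan protein of membrane protrusions known as CD133, was at 35.9, 36.9 and 38.1 FPKM in Pri-Hep and between 36.0 and 38.5 FPKM in Hep-Orgs. In all 5 genes the 2 groups overlapped, and the highest of the 12 libraries was 1.07 to 1.08 times the lowest. Ncam1 had 0 to 6 fragments per library, at most 0.0321 FPKM, around the floor of 3 fragments, and it passed no filter.

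Of the 5 members tested, 0 were called between all Hep-Orgs and Pri-Hep by limma at an adjusted p of 0.05, where the background was 0% of 10986 genes (8.79% at an unadjusted p under 0.05, and 0 of the 5 members at that limit). The log2 fold changes were -0.03 ± 0.02 (SE; limma adjusted p = 0.591) for Cd24a, 0.02 ± 0.02 (adjusted p = 0.781) for Epcam, 0.02 ± 0.02 (adjusted p = 0.821) for Cd9, 0.01 ± 0.02 (adjusted p = 0.908) for Prom1 and 0.00 ± 0.02 (adjusted p = 0.997) for Cd44, with 9 and 3 libraries. The median over the 5 genes was 0.01, and over all genes 0.00.

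Between single groups of the hepatocyte table, 0 of the 5 members were called in any of the 6 pairs, where 0.0091% of genes were called for P1 and for P5 against Pri-Hep, 0.0273% for P10 against P5 and 0% for the other 3 pairs. P10 and P5 were the pair in which most members stood apart. Epcam, Cd24a and Cd44 were higher in every P10 library than in every P5 library, which 8.52% of genes did, by log2 0.06 ± 0.02, 0.05 ± 0.02 and 0.06 ± 0.02 (SE), and the adjusted p by limma was 0.275, 0.329 and 0.316. Against P1, Cd24a and Cd44 at P10 were higher with no overlap, as 8.38% of genes were, by log2 0.06 ± 0.02 and 0.04 ± 0.02 (limma adjusted p = 0.363 and 0.664). Epcam and Cd44 were lower in every P5 library than in every P1 library, which 4.97% of genes did. Cd24a was lower in every P1 library than in every library labelled Pri-Hep, as 6.72% of genes were, and Epcam and Cd9 were higher in every P10 library than in Pri-Hep, as 5.44% were. The slope of Cd24a over the passages of Hep-Orgs was log2 0.03 per step (exact permutation test over all arrangements of 9 libraries, two-sided p = 0.00952), and for the other 5 genes p was 0.154 to 0.968. These 6 p-values are not adjusted, and the slope of Cd24a gave an exact permutation p of 0.111 without the libraries numbered 1 and 0.0667 without those numbered 2, where 0.0222 is the smallest p that 6 libraries allow. The libraries labelled Pri-Hep, at 616 to 638 FPKM, covered the P10 range of 627 to 631 FPKM.

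The spread over the 12 libraries was larger than counting gives. The coefficient of variation was 2.17% to 2.38% for the 5 genes, where counting alone gives 0.587% to 1.47%. Its median over the 2306 genes at 20 FPKM or above was 2.90%, so the 5 genes varied less than the median gene. The ratio of the observed to the counting value was 1.504 to 1.54 for Cd44, Cd9 and Prom1, next to a median of 1.51 over the 2306 genes at 20 FPKM or above. It was 2.28 for Epcam and 4.05 for Cd24a, the most deeply counted of the members, with 22851 to 42027 fragments per library.

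**Figure D2:**
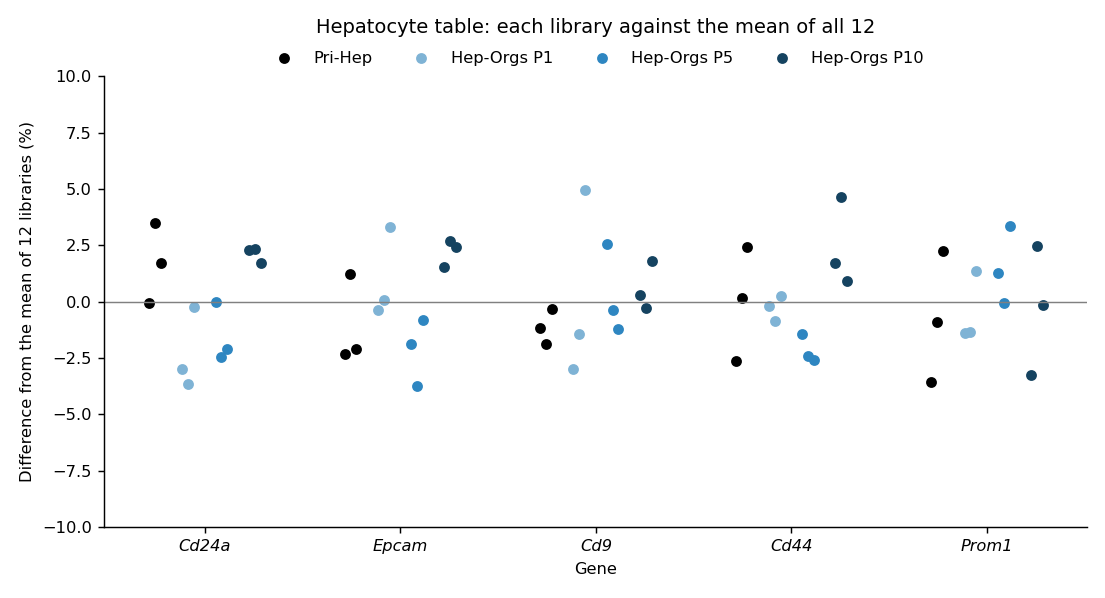
Difference of each of the 12 libraries of the hepatocyte table from the mean of all 12, in percent, for 5 members, with 1 point per library coloured by group. In Cd24a, Epcam and Cd44 the P10 points lie above the P5 points, and in each gene the highest point is 1.07 to 1.08 times the lowest in FPKM.

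The comparison of passages in Cho-Orgs asks how the surface genes of the P0 organoids changed by P5 and P10. The starting cells held by the EpCAM beads are not among the libraries, so what was kept from them cannot be read. At P0 the hepatocyte markers summed above the cholangiocyte markers, as given below. Cho-Orgs P0 is therefore used only as the name of these libraries. From P0 to P5, Cd9, Cd44 and Prom1 rose, and from P5 to P10 all 5 measured members fell. Over the whole course Epcam, Cd24a, Prom1 and Cd44 fell, and the P10 libraries of Cd9 lay within its range at P0.

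Cd9 was at 321, 296 and 286 FPKM at P0, at 512, 472 and 496 FPKM at P5 and at 298, 304 and 309 FPKM at P10. Cd44 was at 167, 133 and 127 FPKM at P0, at 212, 202 and 217 FPKM at P5 and at 117, 115 and 114 FPKM at P10. Prom1 was at 61.2, 69.3 and 94.1 FPKM at P0, at 105, 115 and 104 FPKM at P5 and at 47.3, 46.5 and 47.8 FPKM at P10. In these 3 genes every P5 library was above every library of P0 and P10, as in 13.3% of the 11593 genes tested. At P0 the libraries were uneven, with Cd44 highest in replicate 1 and Prom1 in replicate 3, while at P10 the 3 libraries of each gene lay close together.

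Epcam was at 432, 432 and 488 FPKM at P0, at 478, 496 and 495 FPKM at P5 and at 256, 263 and 259 FPKM at P10. Cd24a was at 614, 748 and 614 FPKM at P0, at 588, 599 and 588 FPKM at P5 and at 393, 390 and 394 FPKM at P10. In these 2 genes, and in Cd44 and Prom1, the P10 libraries were below all others, as in 24.4% of the genes tested. The P0 and P5 libraries of Epcam overlapped, and those of Cd24a were just apart, with P5 lower, as in 24.8% of genes.

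**Figure D3:**
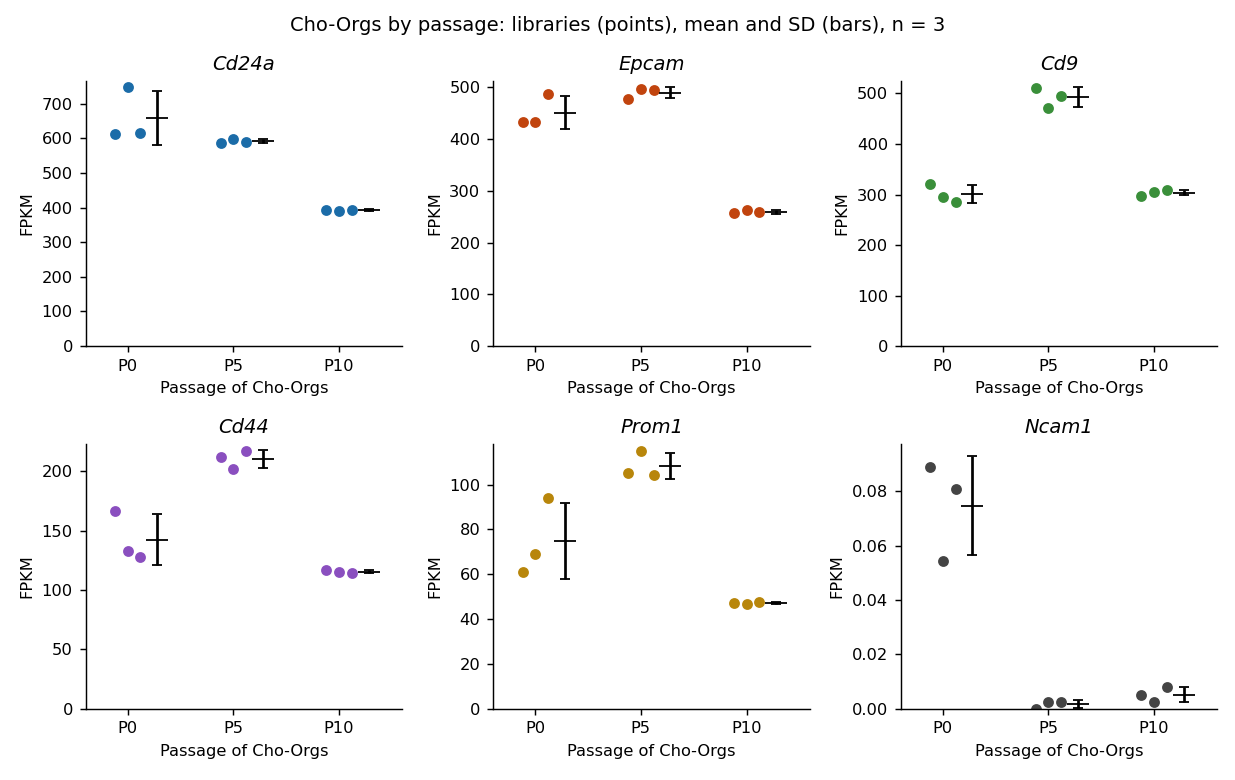
FPKM of the 6 genes in Cho-Orgs at P0, P5 and P10, from 0 on a linear axis, with a point for each of the 3 libraries and the mean with its SD to the right. Cd9, Cd44 and Prom1 are highest at P5, Cd24a and Epcam are lowest at P10, and Ncam1 is above 0.05 FPKM at P0 and under 0.01 FPKM later.

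Between P5 and P0, 3 of the 5 members were called, all higher, where 34% of genes were called higher, 22.6% lower and 56.6% in all. Cd9 rose 1.64-fold (log2 0.71 ± 0.05 SE, limma adjusted p = 4.60e-06), Cd44 1.48-fold (0.57 ± 0.09, adjusted p = 0.000414) and Prom1 1.46-fold (0.55 ± 0.13, adjusted p = 0.00462), with 3 libraries in each group. Epcam had a log2 fold change of 0.12 ± 0.05 (adjusted p = 0.0814) and Cd24a of -0.15 ± 0.07 (adjusted p = 0.105). The median of the 5 members was 0.55 and that of all genes 0.06. Without the libraries numbered 2, Prom1 was no longer called (log2 0.46, adjusted p = 0.0661), which leaves 2 members. Epcam was called when FPKM was rescaled to TPM (log2 0.17, adjusted p = 0.0296) and Cd24a under median-ratio scaling (-0.24, adjusted p = 0.0234). Of all genes called, 60.0% were higher at P5 as deposited, 66.1% under TPM and 47.2% under median-ratio scaling.

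Between P10 and P5, 5 of the 5 members were called and all were lower, where 30.5% of genes were called lower, 31% higher and 61.5% in all. In all 5 every P10 library was below every P5 library, which 36.8% of genes did. Prom1 fell the most among them, 2.26-fold (log2 -1.18 ± 0.13 SE, limma adjusted p = 3.76e-05), and Epcam fell 1.89-fold (-0.91 ± 0.05, adjusted p = 8.43e-07). Cd44 fell 1.82-fold (-0.86 ± 0.09, adjusted p = 2.61e-05), Cd9 1.62-fold (-0.70 ± 0.05, adjusted p = 4.91e-06) and Cd24a 1.51-fold (-0.59 ± 0.07, adjusted p = 7.92e-05). The median of the members was -0.86, and that of all genes 0.01.

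Between P10 and P0, 4 of the 5 members were called, all lower, where 31.3% of genes were called lower, 41% higher and 72.3% in all. Epcam fell 1.73-fold (log2 -0.79 ± 0.05 SE, limma adjusted p = 7.44e-07), Cd24a 1.67-fold (-0.74 ± 0.07, adjusted p = 8.71e-06), Prom1 1.55-fold (-0.63 ± 0.13, adjusted p = 0.00129) and Cd44 1.22-fold (-0.29 ± 0.09, adjusted p = 0.0127). For Cd9 the log2 fold change was 0.01 ± 0.05 (adjusted p = 0.819), and its sign turned under median-ratio scaling and without the libraries numbered 3. The 3 comparisons share their groups, so that a member that is high at P5 counts in 2 of them.

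**Figure D4:**
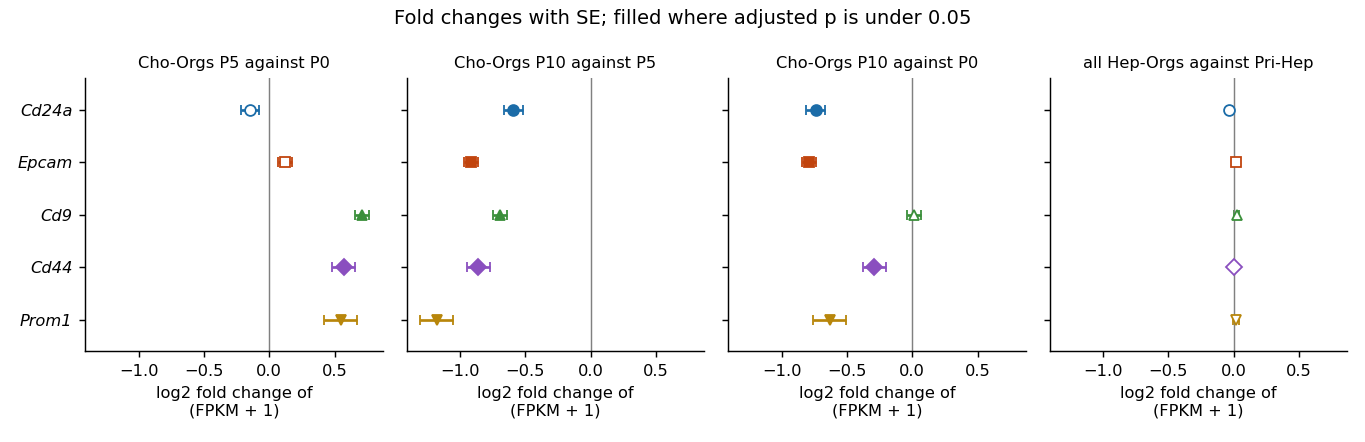
Log2 fold changes of FPKM + 1 with their SE for 5 members in the 3 comparisons of Cho-Orgs and between all Hep-Orgs and Pri-Hep, filled where the adjusted p of limma was under 0.05. In Cho-Orgs 3 members are filled above 0 for P5 against P0, 5 below 0 for P10 against P5 and 4 below 0 for P10 against P0, and the Hep-Orgs panel holds no filled symbol.

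As a slope over P0, P5 and P10, taken as equal steps, Cd24a fell by 0.37 on the log2 scale per step (exact permutation test over all arrangements of 9 libraries, two-sided p = 0.00119, the smallest they can give) and Epcam fell by 0.40 (p = 0.0226). By the same exact test Prom1 gave p = 0.151, Cd44 0.387 and Cd9 0.924, and in these 3 genes the middle passage was the highest. These p-values are not adjusted for the 6 genes. With 1 library of each passage left out, Cd24a alone stayed at the smallest p of 0.0222, and Epcam gave 0.111 to 0.133.

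Ncam1, which codes for a homophilic adhesion protein of the immunoglobulin family, passed no filter and was read in fragments, which are approximate in this table. About 36, 22 and 32 fragments (0.0891, 0.0544 and 0.0809 FPKM) fell on it in the P0 libraries, 0, 1 and 1 at P5, and 2, 1 and 3 at P10. Every library of P5 and P10 was thus at or under the floor of 3 fragments, and every P0 library was above it. With 90 fragments over the 3 libraries at P0, 2 at P5 and 6 at P10, the ratio of P0 to P5 was 43.2 (95% interval 11.6 to 362) and that of P0 to P10 14.3 (6.31 to 39.9), intervals that cover counting error only. Its slope was log2 -0.05 per step of FPKM + 1, a scale that flattens a level this low (exact permutation p = 0.0238, two-sided, 9 libraries).

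Markers of other cells moved with the passages of Cho-Orgs. The summed level of the 11 hepatocyte markers was 7217 to 8170 FPKM at P0, most of it Alb, 204 to 250 FPKM at P5 and 77.8 to 83.4 FPKM at P10, with Asgr1 and Cyp2e1 under 1 FPKM throughout. The 10 cholangiocyte markers summed to 1511 to 1718, 2427 to 2598 and 2821 to 2849 FPKM, with Sctr under 1 FPKM at each passage. At P0 the hepatocyte sum was above the cholangiocyte sum, so by this measure the P0 libraries went against their label. Krt19 was at a mean of 1045 FPKM in the same libraries. Krt19, Krt7 and Aqp1 made up most of these sums, and the list did not rise as a set. Of the 9 tested, 4 were called higher and 4 lower at P10 against P0, where 41% and 31.3% of all genes were. Those lower were Cftr, from 35.1 to 1.04 FPKM, and Ggt1, Sox9 and Anxa4. The 8 proliferation genes summed to 324 to 473, 181 to 186 and 80.1 to 86.9 FPKM. The 8 Kupffer cell and macrophage markers summed to 43.1 to 48.8, 72.1 to 77.3 and 10.06 to 10.53 FPKM. Cd68, a lysosomal protein, made up most of these sums, with means of 30.4, 74.5 and 9.53 FPKM. It alone in the list rose and fell in the way of Cd9, Cd44 and Prom1 (limma adjusted p = 1.46e-06 at P5 against P0 and 1.78e-08 at P10 against P5). Lyz2 went from 13.2 FPKM at P0 to 0 FPKM at P5 and P10 (log2 -3.80 ± 0.14 SE at P5 against P0, limma adjusted p = 4.27e-08). Clec4f, Vsig4, Cd5l, Adgre1, C1qa and Csf1r were under 1 FPKM in all Cho-Orgs groups. The 8 stellate and mesenchymal markers summed to 60.8 to 75.7, 7.54 to 8.37 and 0.174 to 0.239 FPKM, nearly all of it Reln at P0 and P5, and the other 7 were under 1 FPKM at each passage. The part of these lists in the changes of the surface genes was not tested, and in bulk samples fewer cells of a type and less RNA per cell cannot be told apart.

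The genes whose centred log2 levels lay closest to a member over the 9 Cho-Orgs libraries, among 11593 genes, describe the shapes. Nearest to Epcam were Iqgap2, Mien1 and Ctsa, with a root mean square difference of 0.04 to 0.06 on the log2 scale. Nearest to Cd24a were Adi1, Tcaf1 and Pon3 (0.05 each), and nearest to Prom1 were Gdpd1, Cpm and Fut2 (0.07 to 0.11). Cd44 was closest to Dnajc10, Fhl2 and Ncmap, and Cd9 to Tor3a, Dnajc10 and Nxn. Dnajc10, with 89.6, 136 and 79.8 FPKM on average at P0, P5 and P10, was near both.

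The partners of the members did not follow them as a block. Of the EpCAM and prominin group, 5 of 6 genes were tested, and Prom2, the paralog of Prom1, was under 1 FPKM in all groups. Spint2, an inhibitor of surface serine proteases, rose from 449 to 558 FPKM by P5 (log2 0.31 ± 0.06 SE, limma adjusted p = 0.00139) and fell to 463 FPKM at P10 (-0.27 ± 0.06, adjusted p = 0.00311). St14, the protease matriptase, went from 57.6 to 65.0 FPKM (0.17 ± 0.05, adjusted p = 0.00994), a call lost under median-ratio scaling (0.0849, adjusted p = 0.147) and without the libraries numbered 1 or 3 (adjusted p = 0.0613 and 0.137). Cldn7, the claudin that binds EpCAM, was at 182, 194 and 190 FPKM and was not called in any of the 3 comparisons. In all, 2 of the 5 were called higher and 0 lower at P5, where 34% and 22.6% of all genes were, and 0 and 1 at P10 against P5, where 31% and 30.5% were.

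Of the 10 genes around CD44 and CD24, 4 were tested, since the hyaluronan synthases Has1, Has2 and Has3 and the receptors and lectins Lyve1, Selp and Siglecg were under 1 FPKM in every Cho-Orgs group. Spp1, osteopontin, a ligand of CD44 and integrins, fell from 3682 FPKM at P0 to 805 at P5 (log2 -2.17 ± 0.12 SE, limma adjusted p = 6.86e-07) and 527 FPKM at P10 (-0.61 ± 0.12 against P5, adjusted p = 0.00199). Hmmr, a hyaluronan receptor of the mitotic spindle, fell from 18.0 to 10.6 and 0.583 FPKM (adjusted p = 0.000341 and 6.55e-08). Esrp1, which splices Cd44 towards its epithelial forms, rose from 39.0 to 46.6 and 61.6 FPKM (log2 0.25 ± 0.06 and 0.40 ± 0.06, adjusted p = 0.00469 and 0.000261), the first of which was lost without the libraries numbered 2 (adjusted p = 0.0555). Esrp2 went from 26.9 to 31.3 FPKM at P5 (0.21 ± 0.06, adjusted p = 0.0103) and was at 29.4 FPKM at P10. Its call at P5 was lost under median-ratio scaling (0.1233, adjusted p = 0.0827) and without the libraries numbered 1 or 3 (adjusted p = 0.0562 and 0.133). In the hepatocyte table Spp1 was at 3144 FPKM in the libraries labelled Pri-Hep and 3098 FPKM in Hep-Orgs, and these tables were normalized apart.

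Of the 15 tetraspanins and CD9 partners, 14 were tested. At P5 7 were higher and 2 lower than at P0, at P10 4 were higher and 6 lower than at P5, and 6 were higher and 6 lower than at P0. Of all genes, 34% were called higher and 22.6% lower in the first of these comparisons, 31% and 30.5% in the second, and 41% and 31.3% in the third. Cd81, the nearest relative of Cd9 in the list, rose and fell as well, from 143 to 192 FPKM (log2 0.42 ± 0.06 SE, limma adjusted p = 0.000377) and down to 163 FPKM (-0.23 ± 0.06, adjusted p = 0.00949). Igsf8, an immunoglobulin protein bound by CD9 and CD81, fell from 44.2 to 29.7 FPKM at P5 (-0.55 ± 0.09, adjusted p = 0.000732), and Ptgfrn, its relative, was at 18.6, 19.9 and 18.8 FPKM and was not called. Cd151 went from 81.5 to 68.4 FPKM (-0.24 ± 0.07, adjusted p = 0.0147), a call lost without the libraries numbered 2 (-0.1514, adjusted p = 0.0732) or 3 (adjusted p = 0.0679). Itga3, the integrin chain that pairs with CD151, rose from 80.8 to 126 and 205 FPKM (0.64 ± 0.10 and 0.70 ± 0.10, adjusted p = 0.000409 and 0.000184). Hbegf, whose precursor CD9 binds, rose from 28.0 to 40.2 and 57.8 FPKM (0.51 ± 0.07 in each step, adjusted p = 0.000147 and 0.000114), and Tspan8 rose from P5 to P10, from 267 to 392 FPKM (0.55 ± 0.06, adjusted p = 5.21e-05). Tspan1 and Tspan3 fell over that step, by 1.41 and 0.65 on the log2 scale (adjusted p = 7.81e-05 and 6.23e-06).

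Of the 7 relatives of NCAM, 3 were tested. Gfra1, the GDNF receptor to which NCAM can bind, and Fgfr1, which NCAM engages, were at 4.27 and 6.32 FPKM at P0 and fell by 2.33 and 2.36 on the log2 scale at P5 (limma adjusted p = 9.20e-09 and 6.91e-07), the passages over which Ncam1 went to its floor. L1cam rose from 2.99 to 6.81 FPKM (1.03 ± 0.20, adjusted p = 0.00171) and was at 4.44 FPKM at P10. Ncam2 was under 0.02 FPKM in every library of this table. The 6 nerve and Schwann cell markers summed to 2.36 to 3.42 FPKM at P0 and 0.830 to 0.955 FPKM at P10, with Sox10 and Tubb3 under 1 FPKM at P0.

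Of 15 other surface genes used for progenitor cells, 13 were tested. At P5 2 were higher and 6 lower than at P0, at P10 7 were higher and 4 lower than at P5, and 3 were higher and 6 lower than at P0, against the shares of all genes given for the tetraspanins. Lgr5, the R-spondin receptor, fell from 24.2 to 11.2 and 2.47 FPKM (log2 -1.02 ± 0.15 and -1.81 ± 0.15 SE, limma adjusted p = 0.000269 and 5.98e-06). Dlk1, of fetal hepatoblasts, fell from 12.4 to 0.213 FPKM at P5 (-3.36 ± 0.28, adjusted p = 8.88e-06) and was at 3.30 FPKM at P10. Tnfrsf12a, the receptor of TWEAK, rose from 118 to 205 and 299 FPKM (0.79 ± 0.06 and 0.54 ± 0.06, adjusted p = 3.78e-06 and 4.09e-05). Ly6a, known as Sca-1, rose from 229 to 331 FPKM (0.56 ± 0.15, adjusted p = 0.00939) and fell to 110 FPKM (-1.58 ± 0.15, adjusted p = 1.62e-05), while the call of its rise was lost without the libraries numbered 1 (0.3574, adjusted p = 0.0695) or 2 (adjusted p = 0.0602). Kit went from 6.63 at P5 to 0.918 FPKM at P10 (-1.99 ± 0.14, adjusted p = 2.79e-06). Cd14 moved the other way, from 228 to 123 and 251 FPKM (-0.85 ± 0.15 and 1.02 ± 0.15, adjusted p = 0.000897 and 0.000245).

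The Smart-Seq libraries address the 3 shapes of Hep-Orgs at P0. With 1 library per shape there is no replicate check and no test, and the intervals below cover counting error only. Values are listed from the grape-like library over the intermediate to the round-like. Epcam was at 29.7, 197 and 275 FPKM. Cd24a was at 60.2, 192 and 464 FPKM and Cd9 at 51.4, 132 and 138 FPKM. Cd44 was at 53.6, 67.1 and 129 FPKM and Prom1 at 11.01, 51.1 and 31.7 FPKM. These 5 genes were lowest in the grape-like library, and 4 of them were highest in the round-like library, whereas Prom1 was highest in the intermediate.

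The log2 ratio of the FPKM in the grape-like to that in the round-like library was -3.21 (95% interval -3.27 to -3.15) for Epcam, a 9.23-fold difference, and -2.95 for Cd24a, 7.72-fold. It was -1.53 for Prom1, 2.88-fold, -1.43 for Cd9, 2.69-fold, and -1.27 for Cd44, 2.41-fold. Counted on log2(FPKM + 1), all 5 were past 2-fold lower in the grape-like library, where 8.82% of 12595 genes were, and the median ratio of all genes was -0.13. Between the intermediate and the round-like library, 1 of the 6 members was past 2-fold, Cd24a (2.42-fold lower in the intermediate), where 2.54% of genes were past 2-fold lower. Cd44 was 1.92-fold and Epcam 1.40-fold lower in the intermediate, Cd9 differed by 1.05-fold and Prom1 was 1.61-fold higher. Between the grape-like and the intermediate library 4 members, Epcam, Prom1, Cd24a and Cd9, were past 2-fold lower in the grape-like, where 7.15% of genes were.

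Ncam1 went the other way. It was at 3.88, 0.743 and 0.443 FPKM in the same order, from about 1347, 260 and 155 fragments. The grape-like level was 8.76 times the round-like level (log2 ratio 3.13, 95% interval 2.89 to 3.37) and 5.23 times the intermediate one. Counted on log2(FPKM + 1), which flattens levels this low, the ratios were 1.76 and 1.49. On that scale 12.9% and 9.71% of genes were past 2-fold higher in the grape-like library. All 3 levels of Ncam1 were above its highest level in the bulk tables.

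**Figure D5:**
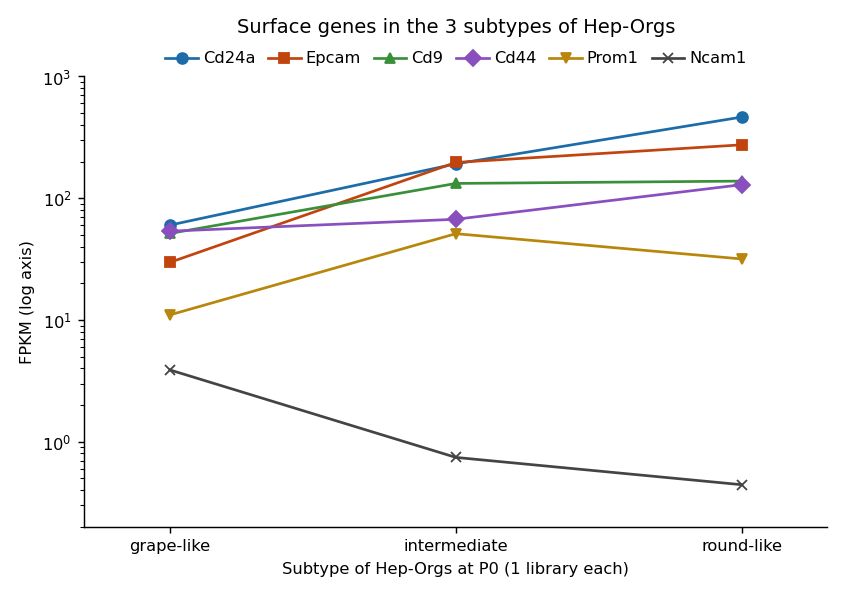
FPKM of the 6 genes on a log axis in the 3 Smart-Seq libraries of Hep-Orgs at P0, 1 per shape, with lines only to guide the eye. Epcam, Cd24a, Cd9 and Cd44 are lowest in the grape-like and highest in the round-like library, Prom1 peaks at 51.1 FPKM in the intermediate, and Ncam1 falls from 3.88 to 0.443 FPKM.

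Markers of other cells moved with the shapes as well. All 8 macrophage markers were above 1 FPKM in the 3 libraries and summed to 9151, 2616 and 1413 FPKM, again from grape-like to round-like, with Lyz2 at 5942 FPKM in the grape-like. The 8 stellate and mesenchymal markers summed to 1362, 351 and 303 FPKM, all of them above 1 FPKM in the grape-like, and the 6 sinusoidal endothelial markers to 74.0, 30.3 and 12.7 FPKM. The blood and platelet list summed to 215, 85.7 and 90.004 FPKM, most of it Pf4, at 185, 74.2 and 83.7 FPKM. Ptprc of the same list was at 1 FPKM or above in all 3 libraries. The nerve and Schwann list summed to 1.95, 1.12 and 1.29 FPKM, with each of its genes under 1 FPKM. The 11 hepatocyte markers summed to 6039, 10402 and 1405 FPKM and the 9 cholangiocyte markers listed in this table to 147, 427 and 544 FPKM. The macrophage sum was above the hepatocyte sum in the grape-like library and close to it in the round-like. The markers of these libraries were thus not those of hepatocytes alone, and Hep-Orgs is used here as their label. The part of these lists in the ratios of the surface genes was not tested, and with 1 library each the shape and the library cannot be told apart.

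Side by side, with the caution that the tables were normalized apart, the round-like library held Epcam at 275, Cd9 at 138 and Prom1 at 31.7 FPKM, near the means of 273, 136 and 37.3 FPKM in the Hep-Orgs of P1 to P10, while Cd24a was at 464 FPKM against 613 FPKM there and Cd44 at 129 against 37.4 FPKM. Relative to Epcam in the same library, Cd44 was at 0.471 in the round-like library and 0.133 to 0.140 in the Hep-Orgs of P1 to P10. In Cho-Orgs it was at 0.261 to 0.386 at P0, 0.408 to 0.444 at P5 and 0.439 to 0.455 at P10. The grape-like library stood out with Cd44 and Cd9 at 1.80 and 1.73 times Epcam. Cd24a was at 2.18 to 2.36 times Epcam in all 12 libraries of the hepatocyte table, at 1.19 to 1.73 times in Cho-Orgs and at 0.974 times in the intermediate library, the only library of the 24 in which Epcam was above Cd24a.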

How the data were processed

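RNA was measured in 24 mouse libraries. The authors deposited FPKM in 3 tables on mm10, and their processing notes name featureCounts 2.0.3 and edgeR 3.40.2. The aligner is not given in the sources used here. In the hepatocyte table FPKM times gene length gave whole fragments for 100% of values (tolerance 0.01). The median-ratio size factor was 1.00184 in every library of that table, so its values were even by this measure as deposited. They were thus not scaled by depth alone. In the cholangiocyte table the size factors were 0.957 to 1.04. Depth in the other tables was estimated from the lengths of genes with 1 transcript in GENCODE M21 and is approximate. Intervals and floors cover counting error only.

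Values were compared as log2(FPKM + 1), a scale that understates the change of low genes, with limma 3.58.1 in R 4.3.3 (lmFit, eBayes with trend). Each table was fitted on its own, with all its groups, over genes at 1 FPKM or above in at least 3 libraries. P-values are two-sided and adjusted by Benjamini-Hochberg over all genes tested, with a threshold of 0.05. Slopes were tested by exact permutation in Python 3.11.15, and the scripts were tested on simulated data. The members, lists and naming rule were chosen with earlier results of these data known. The rule takes the 6 members, 11 relatives and partners, the 2 genes of each list with the largest fold in each direction past the threshold in each Cho-Orgs comparison, and the 3 genes nearest to each member, of which a part is described. A few genes of the lists are not reported here.

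Figure legends of the study tie the replicate numbers to 3 mice, and its methods describe each bulk replicate as an independent cell culture. Libraries with the same number may thus be paired by animal, and the fit with the number as a block was run beside the fit without it. Deviations from the group mean in libraries with the same number correlated at -0.0763 to 0.0548 (18 pairs, hepatocyte table) and -0.0741 to 0.119 (9 pairs, cholangiocyte table). Between libraries with different numbers the ranges were -0.0889 to 0.0931 (36 pairs) and -0.124 to 0.093 (18 pairs), so the values do not show a pairing. P-values measure the spread between the numbered libraries of a group. Tried as alternatives were all genes above 0, a pseudocount of 0.1, TPM, median-ratio scaling, a replicate block, fits of the compared groups, limma-voom on recovered fragments, and leaving out replicates.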

Additional observations from a re-analysis of the deposited data

Results flagged for a closer look

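Epcam, Cd24a and Cd44 had P10 against P5 differences of opposite sign in the 2 kinds of organoid. In Hep-Orgs all 3 P10 libraries were above all 3 P5 libraries, by a log2 fold change of 0.0629 for Epcam, 0.0527 for Cd24a and 0.0641 for Cd44, none of which passed the adjusted threshold of limma, and 8.52% of all genes were higher in this way. In Cho-Orgs all 3 P10 libraries were below all 3 P5 libraries, by -0.915 for Epcam, -0.592 for Cd24a and -0.862 for Cd44, all of which passed it, and 36.8% of all genes were lower in this way. The difference between the 2 kinds of organoid was not tested, since the tables were normalized apart and never fitted together. No library of Hep-Orgs stood far from the other 8 in any member by Dixon's criterion.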

How the results depend on the processing

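The counts of members called were within 1.5 times the main count in 57 of 62 alternatives. They remained 0 in the hepatocyte table throughout, limma-voom on recovered fragments included. Median-ratio scaling could not change the counts there, since every library of that table had the same size factor (1.00184), so it tested nothing. In Cho-Orgs they were 2 to 4 at P5 against P0, 5 at P10 against P5 and 4 to 5 at P10 against P0, the fifth being Ncam1 when all genes above 0 were tested. With a replicate block, in which the number was taken to stand for the mouse, they were 3, 5 and 4, as without it, and 0 in the hepatocyte table. The block changed no call of a member, relative or partner. Calls of St14, Esrp1, Esrp2, Cd151 and Ly6a that were lost stand beside their values. Leaving out a replicate of each group left 6 libraries for a slope, and the members with an exact permutation p under 0.05 were then 1 of 6 in Cho-Orgs each time and 0 to 1 in Hep-Orgs, against 3 and 1 with all libraries.

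Of single values, the log2 fold change of Cd9 at P10 against P0 in Cho-Orgs turned to -0.0671 under median-ratio scaling, and without a replicate it was -0.0329 to 0.0763. In the hepatocyte table, Cd44 in all Hep-Orgs against Pri-Hep turned to -0.0041 under TPM and -0.0021 under limma-voom, and was -0.0186 to 0.0209 without a replicate. Cd9 at P10 against P5 of Hep-Orgs turned to -0.0056 and -0.0017 in the same settings and was -0.0151 to 0.0224 without a replicate. Cd9 in the intermediate against the round-like library turned to 0.0848 under median-ratio scaling. None of these was called. Among partners that were not called, median-ratio scaling turned Cldn7 (-0.0186), Ptgfrn (-0.0536) and Spint2 (-0.0349) at P10 against P0 and Egfr (-0.0311) at P5 against P0. Without a replicate, Cldn7 at P10 against P5 was -0.0644 to 0.0055. At P5 against P0, Egfr was then -0.0731 to 0.1456, Ptgfrn -0.0136 to 0.1854 and Tspan1 -0.1333 to 0.3705, and at P10 against P0 Ptgfrn was -0.0755 to 0.0849 and Spint2 -0.0103 to 0.079. The cause was not tested. Depth limits Ncam1, which was near its floor outside Cho-Orgs at P0 and the Smart-Seq table.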
